A study of Drosophila melanogaster with 12 samples.

Results

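The genes described here are 52 genes of mitosis: the mitotic kinases and their opposing phosphatase, the chromosomal passenger complex, the spindle assembly checkpoint, the anaphase machinery, the kinetochore, the spindle, the central spindle and condensin. They are the rows whose symbol matches a list of 54 names, drawn up with earlier results of these data known; 52 of the names have a row among the 14210 genes of the deposited tables. The names fzr and Grip91 have no row. By gene identifier they are the rows rap and l(1)dd4, whose values are given apart. Ignoring case, the name ald also met the row Ald, the glycolytic enzyme aldolase, which was set aside. All 52 members passed the filter on low values in every comparison. They lie on arms 2L (11 genes), 2R (8), 3L (11), 3R (16) and X (6).

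Poly(A) RNA of *Drosophila melanogaster* was sequenced after depletion of *barc*, the fly counterpart of the splicing factor Tat-SF1, in 12 libraries of 2 systems. The neuroblast groups were 2 *barc* RNAi libraries and 2 control libraries of type I neuroblasts sorted by GFP from larval brains late in the third instar. Both carried dicer2 and asense-Gal4, UAS-CD8::GFP and were raised at 29 °C; the RNAi parent brought a *barc* RNAi line, the control parent the empty landing site VIE-260B. The S2 groups were 4 libraries after 7 days of dsRNA against *barc* (dsbarc) and 4 after dsRNA against mCherry, a sequence that flies lack (dsmCherry), in Schneider's medium with 10% serum. The driver asense-Gal4 marks type I neuroblasts, so the RNAi acts in the cells that were sorted, and S2 is a line first grown from embryos and resembling blood cells. The kits differed, KAPA prepared by hand for neuroblasts and NEB on a robot for S2 cells, so the system and the kit cannot be told apart. In the descriptions, S2 replicates 1 and 2 of both groups carry a first number of 1, and replicates 3 and 4 a first number of 2. The labels do not say what that number means, nor whether replicates were separate cultures or animals, so the p-values rest on spread between libraries that may be purely technical.

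At entry into mitosis, Polo and the Aurora kinases rise in activity while Greatwall and its substrate Endosulfine hold back the phosphatase PP2A with its Twins subunit. Condensin compacts the chromosomes, kinetochores built on centromeres that carry the histone variant Cid capture spindle microtubules, and the checkpoint proteins hold Fizzy and the anaphase promoting complex back until every kinetochore is attached. Separase then opens cohesin, and the central spindle guides cytokinesis. Transcripts of many of these genes are known to be abundant in dividing cells, larval neuroblasts among them. In bulk RNA, fewer cells in mitosis and less of a transcript per cell cannot be told apart.

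Levels are given in FPKM, fragments scaled for transcript length and sequencing depth, as deposited by the authors. A change is the difference in log2(FPKM + 1), *barc* depletion minus control, estimated with limma. A gene was called when its Benjamini-Hochberg adjusted p over all genes tested was under 0.05. This scale understates the change of genes with low FPKM. In units of 1000000, the fragments implied by the deposited confidence intervals ran from 14.6 to 48.7 per library, and even the least counted member, the short transcript of *cid*, had 42.0 fragments in its thinnest library. The targeted gene *barc* stood at 15.1 and 17.9 FPKM in *barc* RNAi neuroblasts, against 86.4 and 94.0 FPKM in control neuroblasts. In S2 cells it stood at 7.32, 4.27, 3.02 and 3.22 FPKM in dsbarc replicates 1 to 4, against 21.1, 23.9, 20.9 and 22.3 FPKM in dsmCherry replicates 1 to 4. The change was -2.39 in neuroblasts (SE 0.08, limma adjusted p = 5.9e-07) and -2.14 in S2 cells (SE 0.22, limma adjusted p = 0.00067). Depletion left 14.4% of the control mean in S2 replicates 3 and 4 and 25.8% in replicates 1 and 2.

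Neuroblast identity was checked with 8 markers, which summed to 1776 FPKM in both *barc* RNAi neuroblast libraries, against 1943 and 1981 FPKM in control neuroblasts. A large share of that sum is *mira* (855 and 850 FPKM with *barc* RNAi, against 902 and 921 FPKM in controls, uncalled). Of the other 7, *dpn* (-0.37, limma adjusted p = 0.00076), *nab* (-0.36, limma adjusted p = 0.00078) and *insc* (-0.27, limma adjusted p = 0.0035) fell, and *ase*, *wor*, *pros* and *grh* were uncalled (-0.06 to 0.03). The 7 hemocyte markers summed to 515 to 564 FPKM in dsbarc, against 361 to 494 FPKM in dsmCherry S2 cells. A large share of that sum is *crq* (277 to 370 FPKM in S2 libraries, uncalled). In replicates 1 and 2 alone *Pxn* fell (-1.18, limma adjusted p = 0.00018), while *He* (1.60), *nimC1* (0.60) and *srp* (0.44) rose. *Hml*, *crq* and *ush* were uncalled in that pair. Single markers differed between the pairs of replicates. *Hml*, a clotting protein gene of larval hemocytes, had 0.11, 0.12, 4.09 and 4.42 FPKM in dsbarc 1 to 4, against 0.41, 0.28, 2.91 and 9.37 FPKM in dsmCherry 1 to 4. *He* had 103.7, 117, 40.98 and 37.4 FPKM in dsbarc, against 31.7, 40.3, 9.03 and 12.1 FPKM in dsmCherry. In neuroblasts the 6 glial markers summed to 121 and 135 FPKM with *barc* RNAi, against 199 and 204 FPKM in controls, and 4 of the 6, *repo* among them, averaged under 1 FPKM in both groups, so that *nrv2* and *Eaat1* make up nearly all of the sum. The 7 neuronal markers summed to 41.8 and 41.9 FPKM with *barc* RNAi, against 30.9 and 32.4 FPKM in controls, nearly all of it *elav* and *fne*, with 5 of the 7 under 1 FPKM in both groups. The part of other cell types in the changes, and of the marker differences between S2 pairs, was not tested.

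In S2 cells, the response of the mitotic genes differed between the 2 pairs of replicates, and *barc* was depleted in both. In replicates 3 and 4 taken alone, limma called 0 of the 52 members, with 5 higher and 1 lower at an unadjusted p under 0.05. Among all 7603 genes tested, that pair gave 6.08% called higher and 6.21% called lower. At an unadjusted p under 0.05 it gave 28.9% of all genes, both directions together. In replicates 1 and 2 taken alone, 41 members fell and 7 rose, beside 44.6% of all genes called lower and 27.4% called higher. The median change of the members was 0.07 in replicates 3 and 4 and -0.77 in replicates 1 and 2, where the median of all genes tested was 0.03 and -0.15. A limma test of the difference itself (the effect in replicates 3 and 4 minus that in replicates 1 and 2) called 32 members, all of them higher, beside 15.9% of all genes called higher and 6.47% called lower. The median difference was 1.01 for the members and 0.17 for all genes.

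The low values belonged to dsbarc 1 and dsbarc 2. In 34 of 52 members (65.4%) both of these libraries lay below each of the other 6 S2 libraries, which held for 32.5% of all genes tested. In 3 members, *Bub1*, *mts* and *tacc*, both lay above the other 6 (20.3% of all genes). Between the pairs of the same group, dsbarc replicates 3 and 4 exceeded dsbarc replicates 1 and 2 in 47 of 52 members, by a median of 0.95 on the log2 scale, against 0.10 for all genes. Within dsmCherry the corresponding median was -0.14 for the members and -0.08 for all genes. The controls of the second pair also differed between themselves: dsmCherry 3 held the lowest of the 4 control values for 30 members and dsmCherry 4 for 18. The 47, 30 and 18 were counted over the members alone, not over all genes, so they do not set the members apart. In units of 1000000 fragments, the depth of dsbarc replicates 1 to 4 was 17.2, 14.6, 17.9 and 18.3.

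**Figure D1:**
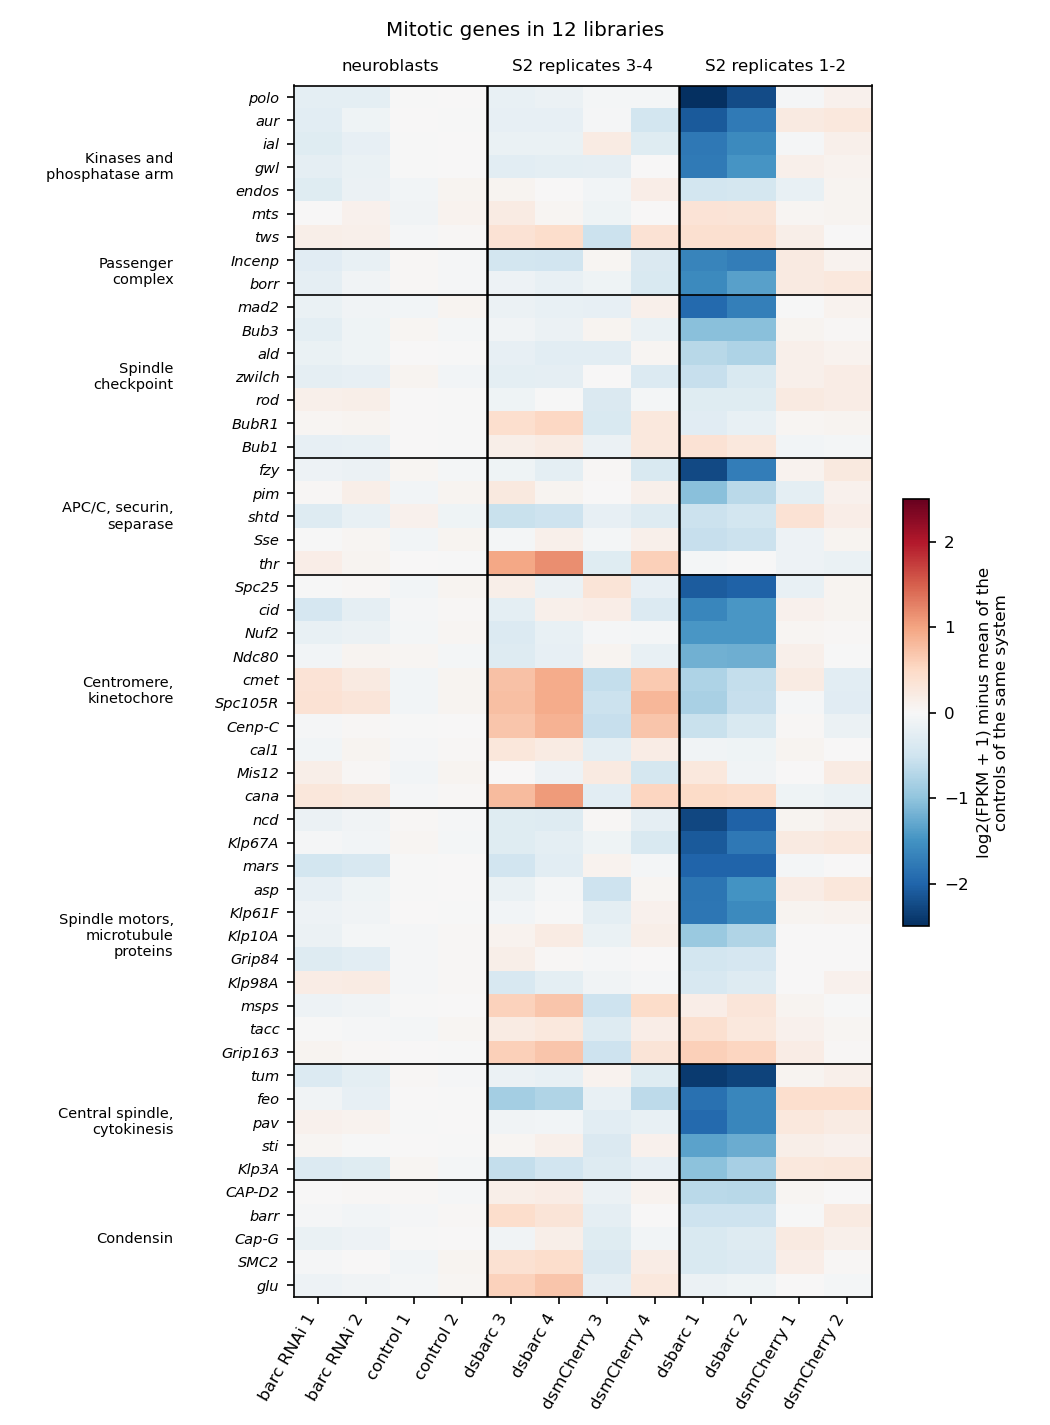
Each row is 1 of the 52 genes, grouped by role, and each column 1 of the 12 libraries; the colour gives log2(FPKM + 1) minus the mean of the controls of the same system. The dark blue cells lie in dsbarc 1 and dsbarc 2, in which 34 of 52 genes lay below all other S2 libraries, while the neuroblast columns stay close to 0.

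Over all 8 S2 libraries, 5 members fell (Incenp, shtd, Klp98A, Klp3A and feo) and 2 rose (Grip163 and cana), beside 15.2% of all genes called lower and 11.5% called higher. The median was -0.35 for the members and -0.06 for all genes. S2 libraries of the same pair deviated together, whether of the same number (r = 0.451 to 0.588) or not (0.326 to 0.618). With the replicate number as a block (a replicate block) 8 members were called lower and 2 higher, beside 19.4% and 17.1% of all genes. With the first number as a block, 18 members were called lower and 2 higher, beside 25.5% and 20.5% of all genes. These counts rest on single libraries. Leaving out dsbarc 1, dsbarc 2, dsmCherry 1 or dsmCherry 2 gave 0 members lower (9.09%, 8.58%, 9.35% and 8.25% of all genes). The count was 19 without dsbarc 3 (16.6% of all genes) and 15 without dsbarc 4 (15.3%). The 2 called higher became 4 without dsmCherry 4 (13.8% of all genes) and 0 without any 1 of the other libraries (5.96% to 11.8%).

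In neuroblasts the changes were small. Limma called 17 members lower and 3 higher, beside 23.8% of the 6732 genes tested called lower and 19.1% called higher, and left 32 uncalled. The changes ran from -0.43 for *mars* to 0.34 for *Spc105R*, with a median of -0.11 against -0.02 for all genes. Rescaling FPKM to TPM, so that each library has the same sum, shifted the median of all genes to 0.08, from -0.02, and gave 7 members lower and 9 higher (15.5% and 30.7% of all genes). The corresponding shift in S2 cells was to 0.06, from -0.06. Of the 20 calls, 13 were lost when 1 of the 4 libraries was left out: *aur*, *gwl*, *endos*, *Incenp*, *Bub1*, *Bub3*, *zwilch*, *shtd*, *cid*, *Nuf2*, *asp*, *cmet* and *cana*. The calls of *polo*, *ial*, *mars*, *Grip84*, *Klp3A*, *tum* and *Spc105R* were kept in each of these fits. Without control 1, control 2 or *barc* RNAi 1 the share of all genes called also fell, so losing calls was not particular to the members. The median change of the members was -0.09 without *barc* RNAi 1, -0.12 without *barc* RNAi 2, -0.11 without control 1 and -0.09 without control 2. For all genes it was -0.01, -0.02, -0.02 and -0.01 in the same order.

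**Figure D2:**
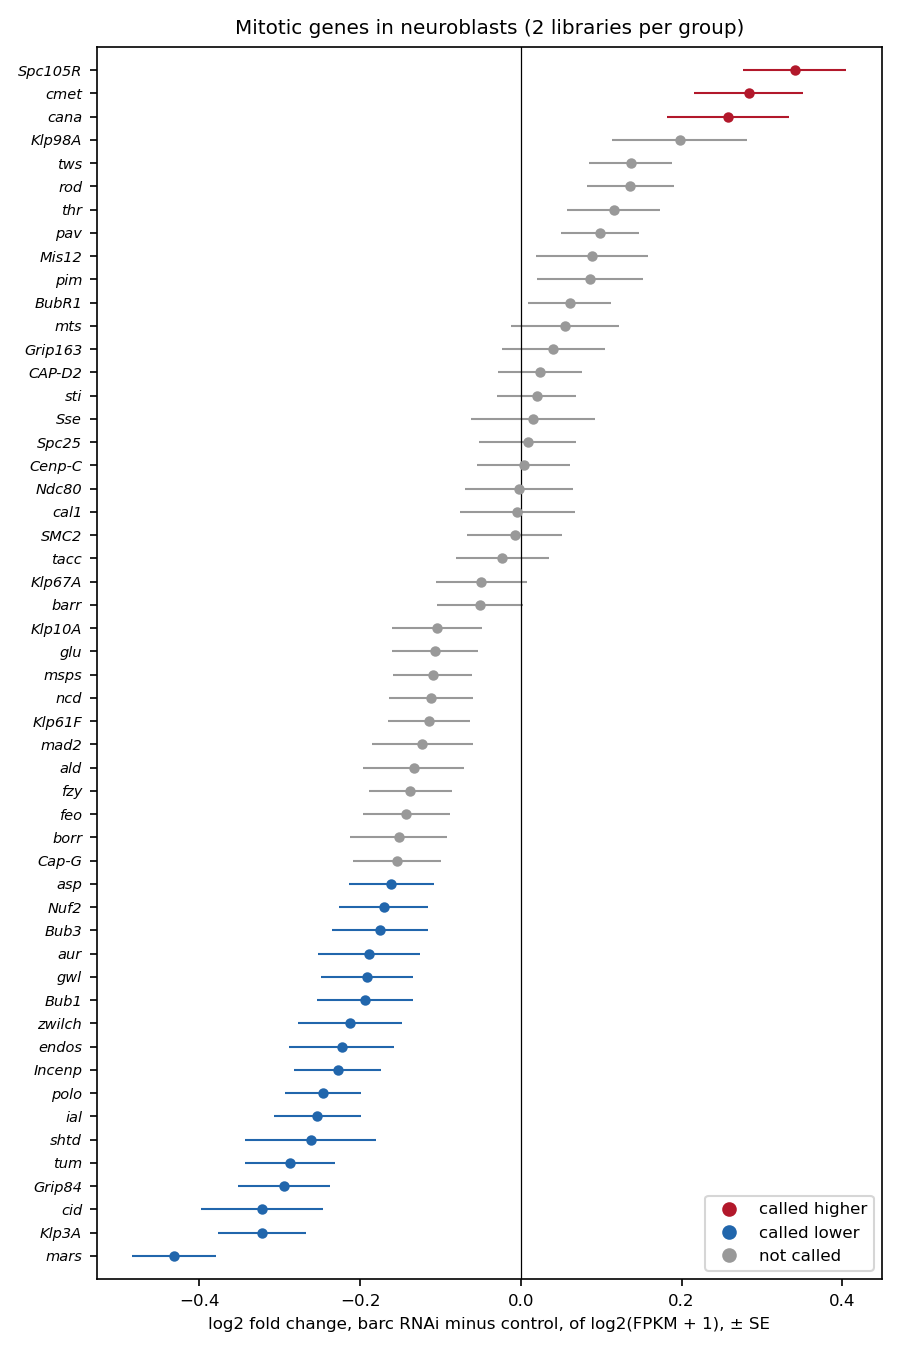
Points give the log2 fold change of each of the 52 genes, *barc* RNAi minus control neuroblasts, on the log2(FPKM + 1) scale, and bars 1 SE from limma (2 libraries per group). Blue marks the 17 called lower, red the 3 called higher; every value lies between -0.43 and 0.34.

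The change in neuroblasts minus that in S2 cells was called for 0 of 52 members in a limma fit over all 4 groups (5.76% of 7685 genes in either direction). At an unadjusted p under 0.05 it was positive in 2 and negative in 1, beside 22.1% of all genes in either direction. The median difference was 0.33, against 0.04 for all genes. The fit over 4 groups shares 1 spread between the systems and has no term for the S2 pairs, whose median changes were -0.77 and 0.07. In that fit the neuroblast change itself was called for 0 members (1.42% of all genes lower and 1.29% higher). The 0 called therefore does not show that the systems respond alike.

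The counts by role below stand beside 44.6% of all genes called lower and 27.4% called higher in S2 replicates 1 and 2. In neuroblasts these shares were 23.8% and 19.1%. Among the kinases and their phosphatase arm, 5 of 7 members fell in S2 replicates 1 and 2 and the same 5 fell in neuroblasts. The 2 phosphatase subunits rose in S2 replicates 1 and 2. *polo* (FBgn0003124, arm 3L, 20303105 to 20306566), the Polo kinase of centrosomes, kinetochores and the midzone, had 15.9, 19.8, 84.9 and 86.6 FPKM in dsbarc 1 to 4, against 94.7, 104, 93.8 and 93.7 FPKM in dsmCherry 1 to 4. The first 2 dsbarc libraries were far below every other library, and the last 2 were just below every control. The dsbarc mean was 91.4% of control in replicates 3 and 4 and 17.97% in replicates 1 and 2 (log2 -2.42, SE 0.11, limma adjusted p = 1.1e-05). The difference between pairs was 2.29 (SE 0.16, limma adjusted p = 0.00057). In neuroblasts *polo* had 304 and 303 FPKM with *barc* RNAi, against 357 and 364 FPKM in controls (-0.25, SE 0.05, limma adjusted p = 0.0036).

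*aur*, which encodes Aurora A, the kinase of centrosome maturation, had 5.71, 7.46, 23.7 and 23.9 FPKM in dsbarc 1 to 4, against 32.6, 33.2, 27.0 and 19.8 FPKM in dsmCherry 1 to 4. In replicates 3 and 4 the dsbarc values lay between the 2 controls (0.04, SE 0.18), whereas in replicates 1 and 2 they were 19.99% of control (-2.17, SE 0.12, limma adjusted p = 2.1e-05). *ial*, which encodes Aurora B, the enzyme of the passenger complex, had 11.96, 13.97, 39.3 and 38.9 FPKM in dsbarc, against 43.3, 47.8, 50.9 and 35.4 FPKM in dsmCherry. Its difference between pairs was 1.62 (SE 0.24, limma adjusted p = 0.0039). *gwl*, the Greatwall kinase, stood at -0.14, uncalled, in replicates 3 and 4 and fell in replicates 1 and 2 (-1.73). The Greatwall substrate *endos* fell by less in replicates 1 and 2 (-0.39, to 75.6% of control).

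The phosphatase subunits stood apart from the kinases. *mts*, the catalytic subunit of PP2A, had 181, 180, 166 and 148 FPKM in dsbarc 1 to 4, against 148, 150, 132 and 144 FPKM in dsmCherry 1 to 4. It was the member with the highest control level in both systems, and dsbarc 1 and 2 lay above all 6 other libraries (0.27 in replicates 1 and 2, SE 0.05, limma adjusted p = 0.0039). *tws*, the regulatory subunit that targets PP2A to mitotic substrates, rose by 0.31 in replicates 1 and 2. In neuroblasts *aur* (-0.19, and -0.11, uncalled, without *barc* RNAi 1), *ial* (-0.25), *gwl* (-0.19) and *endos* (-0.22) fell, while *mts* was at 0.06 and *tws* at 0.14, both uncalled.

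**Figure D3:**
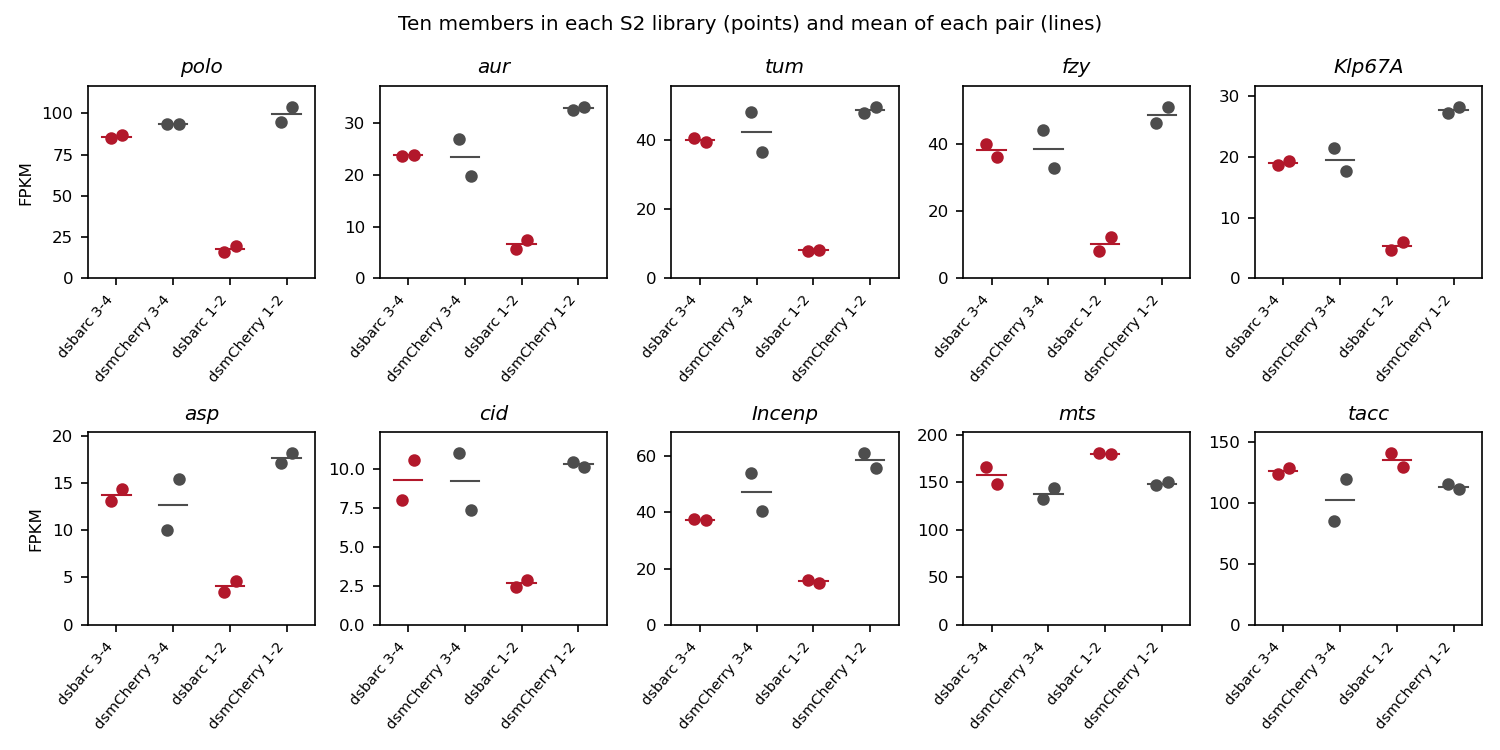
Points give FPKM of 10 genes in each S2 library, red for dsbarc and grey for dsmCherry, replicates 3 and 4 on the left and replicates 1 and 2 on the right; lines are means of 2 libraries. The dsbarc points of replicates 1 and 2 lie below all others for 8 genes and above all others for *mts* and *tacc*. The 10 genes were picked for display and do not stand for all 52 members. Of the 52, both points lay below the other 6 libraries in 34 and above them in 3, beside 32.5% and 20.3% of all genes.

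Both passenger complex members fell in S2 replicates 1 and 2. *Incenp*, the scaffold that anchors Aurora B, had 16.01, 15.01, 37.7 and 37.2 FPKM in dsbarc 1 to 4, against 61.1, 55.9, 53.9 and 40.6 FPKM in dsmCherry 1 to 4. All dsbarc values were below all dsmCherry values, and it fell over all 8 libraries (-1.08, SE 0.32, limma adjusted p = 0.036). The change was -0.31 in replicates 3 and 4, uncalled, and -1.85 in replicates 1 and 2. In neuroblasts *Incenp* fell to 85.3% of control (-0.23, SE 0.05, limma adjusted p = 0.0098). *borr*, which encodes Borealin, the subunit that binds the complex to centromeres, was at 106% of control in replicates 3 and 4 and fell to 28.2% in replicates 1 and 2. In neuroblasts it was at -0.15, uncalled.

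Of the 7 checkpoint genes, 6 fell and Bub1 rose in S2 replicates 1 and 2, and 3 fell in neuroblasts. *mad2*, whose product binds Fizzy, had 15.5, 18.4, 56.1 and 54.9 FPKM in dsbarc 1 to 4, against 62.4, 66.4, 54.3 and 68.3 FPKM in dsmCherry 1 to 4 (-1.87 in replicates 1 and 2, SE 0.09, limma adjusted p = 1.6e-05). *Bub3*, the adaptor that brings Bub1 and BubR1 to kinetochores, had 32.1, 31.9, 63.4 and 60.3 FPKM in dsbarc, against 70.2, 68.4, 70.7 and 59.2 FPKM in dsmCherry. The *Bub3* values of dsbarc 1 and 2 lay below all others. The kinase gene *Bub1* had 22.8, 21.4, 19.7 and 20.6 FPKM in dsbarc, against 16.8, 17.1, 15.8 and 21.3 FPKM in dsmCherry, and rose by 0.36 in replicates 1 and 2 (SE 0.07, limma adjusted p = 0.0045). *BubR1*, which encodes the anaphase inhibitor that pairs with Mad2, was at 0.52 in replicates 3 and 4, uncalled, and fell by 0.30 in replicates 1 and 2. *ald*, which encodes the Mps1 kinase at the top of the checkpoint, fell to 53.5% of control in replicates 1 and 2. The corona subunits *zwilch* and *rod*, which bring dynein to kinetochores, fell to 62.0% and 69.3%. In neuroblasts *zwilch* (-0.21), *Bub1* (-0.19) and *Bub3* (-0.18) were called lower with all 4 libraries, and each lost its call when 1 was left out (*zwilch* -0.14 without control 1, *Bub3* -0.11 without *barc* RNAi 1), and the neuroblast change of *Bub1* minus its change over all S2 libraries was uncalled (-0.44, limma adjusted p = 0.16).

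Of the 5 anaphase genes, 4 fell in S2 replicates 1 and 2. *fzy*, the Cdc20-type activator of the anaphase promoting complex and the target of the checkpoint, had 8.26, 12.4, 40.1 and 36.3 FPKM in dsbarc 1 to 4, against 46.2, 51.2, 44.3 and 33.0 FPKM in dsmCherry 1 to 4. That is 98.9% of control in replicates 3 and 4 and 21.2% in replicates 1 and 2 (-2.16, SE 0.17, limma adjusted p = 8.2e-05), a difference of 2.15. The securin gene *pim* and the separase gene *Sse* fell to 55.6% and 65.1% of control in replicates 1 and 2. *thr*, which encodes a partner of separase, had 6.78, 7.07, 14.9 and 17.2 FPKM in dsbarc, against 6.37, 6.20, 5.60 and 11.2 FPKM in dsmCherry. It had the highest change of all members in replicates 3 and 4 (0.92, SE 0.30, limma adjusted p = 0.11, uncalled). The scaffold subunit gene *shtd* (Apc1) had 19.7, 20.8, 19.3 and 19.9 FPKM in dsbarc, against 37.3, 32.8, 25.03 and 22.9 FPKM in dsmCherry. Here the dsbarc libraries were alike and the controls apart, and the fall over all 8 libraries was called (-0.52, SE 0.16, limma adjusted p = 0.039). In neuroblasts *shtd* had 37.2 and 41.1 FPKM with *barc* RNAi, against 50.8 and 43.7 FPKM in controls (-0.26, SE 0.08, limma adjusted p = 0.030), the only anaphase member called there. Without control 1 it was at -0.16 (limma adjusted p = 0.21), and the call was also lost without *barc* RNAi 1 (-0.19, limma adjusted p = 0.093).

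The row rap, which by identifier is the second activator fzr (Cdh1-type, active from late mitosis into interphase), behaved unlike *fzy*. It had 27.6, 27.8, 6.46 and 5.97 FPKM in dsbarc 1 to 4, against 8.50, 7.94, 5.36 and 5.78 FPKM in dsmCherry 1 to 4. The dsbarc mean was 111% of control in replicates 3 and 4 and 337% in replicates 1 and 2 (1.64), and the difference between pairs was -1.50 (SE 0.15, limma adjusted p = 0.00095). In neuroblasts rap had 27.6 and 26.2 FPKM with *barc* RNAi, against 21.6 and 22.7 FPKM in controls (0.27, SE 0.06, limma adjusted p = 0.0086).

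At the centromere and kinetochore, 7 of 10 members fell and 1 rose in S2 replicates 1 and 2. In neuroblasts 2 of 10 fell and 3 rose, near the 23.8% and 19.1% of all genes. *cid*, the centromeric histone that defines where a kinetochore forms, had 2.45, 2.87, 8.03 and 10.6 FPKM in dsbarc 1 to 4, against 10.5, 10.1, 11.0 and 7.38 FPKM in dsmCherry 1 to 4. It was at 0.03, uncalled, in replicates 3 and 4 and fell in replicates 1 and 2 (-1.63, SE 0.10, limma adjusted p = 3.0e-05). *cal1*, whose product loads Cid, was uncalled in every comparison, with 89.7% of control in replicates 1 and 2. *Cenp-C*, the inner kinetochore linker, was at 0.72 in replicates 3 and 4, uncalled, and fell by 0.41 in replicates 1 and 2.

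In the outer kinetochore, all 3 members of the microtubule-binding Ndc80 complex fell in S2 replicates 1 and 2. *Spc25* had 7.25, 7.58, 37.4 and 30.6 FPKM in dsbarc 1 to 4, against 29.9, 35.4, 43.0 and 29.1 FPKM in dsmCherry 1 to 4 (-1.996, SE 0.10, limma adjusted p = 1.5e-05). *Nuf2* fell to 33.6% and *Ndc80* to 36.3% of control in the same pair. *Mis12*, which links this complex to the centromere, was at 99.5% of control there, with 16.2, 12.4, 13.4 and 12.05 FPKM in dsbarc, against 13.4, 15.5, 15.6 and 9.56 FPKM in dsmCherry. *Spc105R*, the KNL1 platform for Bub proteins, had 3.14, 3.85, 11.2 and 12.7 FPKM in dsbarc, against 6.08, 4.96, 4.00 and 11.9 FPKM in dsmCherry. Of the 4 controls, dsmCherry 4 alone stood near dsbarc 3 and 4, and *Spc105R* was uncalled in replicates 3 and 4 (0.69) and called lower in replicates 1 and 2 (-0.54). In neuroblasts it rose, with 35.8 and 34.4 FPKM with *barc* RNAi, against 26.3 and 28.7 FPKM in controls (0.34, SE 0.06, limma adjusted p = 0.0034).

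The 2 CENP-E-type kinesins that carry chromosomes to the spindle equator, *cmet* (arm 2L, 11260823 to 11269179) and *cana* (arm 2L, 11269727 to 11279847), are neighbours on the chromosome and both rose in neuroblasts. *cmet* had 31.9 and 29.8 FPKM with *barc* RNAi, against 24.1 and 26.3 FPKM in controls (0.28, SE 0.07, limma adjusted p = 0.0099). *cana* had 10.0 and 9.78 FPKM with *barc* RNAi, against 7.94 and 8.29 FPKM in controls (0.26, SE 0.08, limma adjusted p = 0.024). In S2 cells *cana* also rose over all 8 libraries, with 7.83, 7.58, 9.94 and 12.2 FPKM in dsbarc 1 to 4, against 4.84, 4.60, 4.24 and 8.21 FPKM in dsmCherry 1 to 4 (0.70, SE 0.22, limma adjusted p = 0.044). *cmet* was at 0.81, uncalled, in replicates 3 and 4 and fell in replicates 1 and 2 (-0.65). Both overlap another gene, so fragments could have been shared. Of the other kinetochore members, *cid* (-0.32) and *Nuf2* (-0.17) fell in neuroblasts.

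Of the 11 spindle motor and microtubule genes, 8 fell and 3 rose in S2 replicates 1 and 2, and 3 fell in neuroblasts. The motors come first. *ncd*, a minus-end kinesin that focuses spindle poles, had 17.9, 21.6, 73.1 and 72.4 FPKM in dsbarc 1 to 4, against 95.3, 98.1, 92.0 and 77.3 FPKM in dsmCherry 1 to 4. The dsbarc mean was 86.0% of control in replicates 3 and 4 and 20.4% in replicates 1 and 2 (-2.24, SE 0.09, limma adjusted p = 9.3e-06). *Klp67A*, a kinesin that shortens kinetochore fibres, had 4.62, 6.04, 18.7 and 19.4 FPKM in dsbarc, against 27.2, 28.3, 21.4 and 17.7 FPKM in dsmCherry. Its dsbarc values of replicates 3 and 4 lay between the controls of that pair. *Klp61F*, the bipolar kinesin that pushes the poles apart, fell to 26.9% of control in replicates 1 and 2, and *Klp10A*, a microtubule depolymerase, to 54.8%. *Klp98A*, a motor of endosomes, was the member of this role called lower over all 8 libraries (-0.34, SE 0.10, limma adjusted p = 0.038), with every dsbarc value (10.3 to 11.6 FPKM) below every dsmCherry value (12.9 to 15.1 FPKM).

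Among the microtubule-associated proteins, *asp*, which holds spindle poles together, had 3.45, 4.64, 13.1 and 14.3 FPKM in dsbarc 1 to 4, against 17.1, 18.2, 10.0 and 15.4 FPKM in dsmCherry 1 to 4. It fell to 23.0% of control in replicates 1 and 2 (-1.89, SE 0.13, limma adjusted p = 4.6e-05). *mars* (FBgn0033845, arm 2R, 9390080 to 9393516), a stabiliser of spindle microtubules related to HURP, had 6.65, 6.61, 20.7 and 24.3 FPKM in dsbarc, against 28.4, 29.6, 31.2 and 28.6 FPKM in dsmCherry. All 4 dsbarc values were below all controls, and the change was -0.40, uncalled, in replicates 3 and 4 and -1.98 in replicates 1 and 2. In neuroblasts *mars* had the largest fall of the members, with 81.1 and 85.0 FPKM with *barc* RNAi, against 112 and 113 FPKM in controls (74.0% of control, -0.43, SE 0.05, limma adjusted p = 0.00036). It overlaps *drk*.

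The microtubule polymerase gene *msps* and its partner *tacc* went the other way. *tacc* had 141, 129, 124 and 129 FPKM in dsbarc 1 to 4, against 115, 111, 85.1 and 119 FPKM in dsmCherry 1 to 4, so all dsbarc values were above all controls, and it rose by 0.25 in replicates 1 and 2. *msps* rose by 0.20 in the same pair. The γ-tubulin ring gene *Grip163* had 6.90, 6.54, 6.90 and 7.42 FPKM in dsbarc, against 4.88, 4.28, 2.61 and 5.50 FPKM in dsmCherry, and rose over all 8 libraries (0.61, SE 0.19, limma adjusted p = 0.042). The core ring subunit *Grip84* was at 0.10, uncalled, in replicates 3 and 4 and fell in replicates 1 and 2 (-0.46). In neuroblasts *Grip84* fell to 81.1% of control (-0.29) and *asp* to 89.4% (-0.16), while *Grip163* was at 0.04. The row l(1)dd4, by identifier the ring subunit Grip91, fell in neuroblasts (-0.17, 88.7% of control) and was uncalled in S2 cells, at 174% of control in replicates 3 and 4 and 113% in replicates 1 and 2.

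All 5 central spindle and cytokinesis genes fell in S2 replicates 1 and 2, with a median of -2.02, the lowest of the 8 roles. All 5 were called higher for the difference between pairs, beside 15.9% of all genes. *tum* (FBgn0086356, arm 2R, 9743655 to 9746222), the RacGAP of centralspindlin, had the largest fall of any member: 7.82, 8.25, 40.6 and 39.5 FPKM in dsbarc 1 to 4, against 47.7, 49.7, 48.1 and 36.6 FPKM in dsmCherry 1 to 4. The dsbarc mean was 94.6% of control in replicates 3 and 4 and 16.5% in replicates 1 and 2 (-2.46, SE 0.07, limma adjusted p = 5.0e-06). Its kinesin partner *pav* had 11.5, 14.5, 44.3 and 45.0 FPKM in dsbarc, against 56.5, 54.0, 38.7 and 41.0 FPKM in dsmCherry. In replicates 3 and 4 both dsbarc values of *pav* were above both controls, without a call (0.16). *sti*, the citron kinase of the contractile ring, was at 115% of control in replicates 3 and 4 and fell to 34.6% in replicates 1 and 2.

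*feo*, which encodes the microtubule bundler of the midzone (PRC1), had 12.7, 15.2, 27.0 and 28.9 FPKM in dsbarc 1 to 4, against 65.6, 66.2, 43.0 and 31.0 FPKM in dsmCherry 1 to 4. All dsbarc values were below all controls, and the fall over all 8 libraries was called (-1.27, SE 0.32, limma adjusted p = 0.022). Its motor partner *Klp3A* had 15.8, 18.05, 21.5 and 23.5 FPKM in dsbarc, against 39.8, 40.5, 26.1 and 28.4 FPKM in dsmCherry (-0.73, SE 0.18, limma adjusted p = 0.021). In neuroblasts *Klp3A* had 77.4 and 79.7 FPKM with *barc* RNAi, against 101 and 95.5 FPKM in controls (-0.32, SE 0.05, limma adjusted p = 0.0020). *tum* had 94.7 and 101 FPKM with *barc* RNAi, against 122 and 117 FPKM in controls (-0.29, SE 0.06, limma adjusted p = 0.0039). *pav* (0.10), *feo* (-0.14) and *sti* (0.02) were uncalled in neuroblasts.

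Condensin had the highest median of the 8 roles in S2 replicates 3 and 4 (0.48, 0 called) and the least negative one in replicates 1 and 2 (-0.52), where 4 of 5 members fell. *CAP-D2* had 10.5, 10.5, 19.5 and 19.9 FPKM in dsbarc 1 to 4, against 18.2, 17.5, 15.7 and 18.5 FPKM in dsmCherry 1 to 4. The ATPase subunit *SMC2* had 14.4, 14.8, 24.9 and 26.0 FPKM in dsbarc, against 21.2, 19.3, 14.4 and 21.6 FPKM in dsmCherry. For both genes the dsbarc values of replicates 3 and 4 were above all controls of that pair. The kleisin *barr* fell to 63.1% and *Cap-G* to 68.4% of control in replicates 1 and 2, while *glu*, the other ATPase subunit, was uncalled at 93.1%. No condensin gene was called in neuroblasts.

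**Figure D4:**
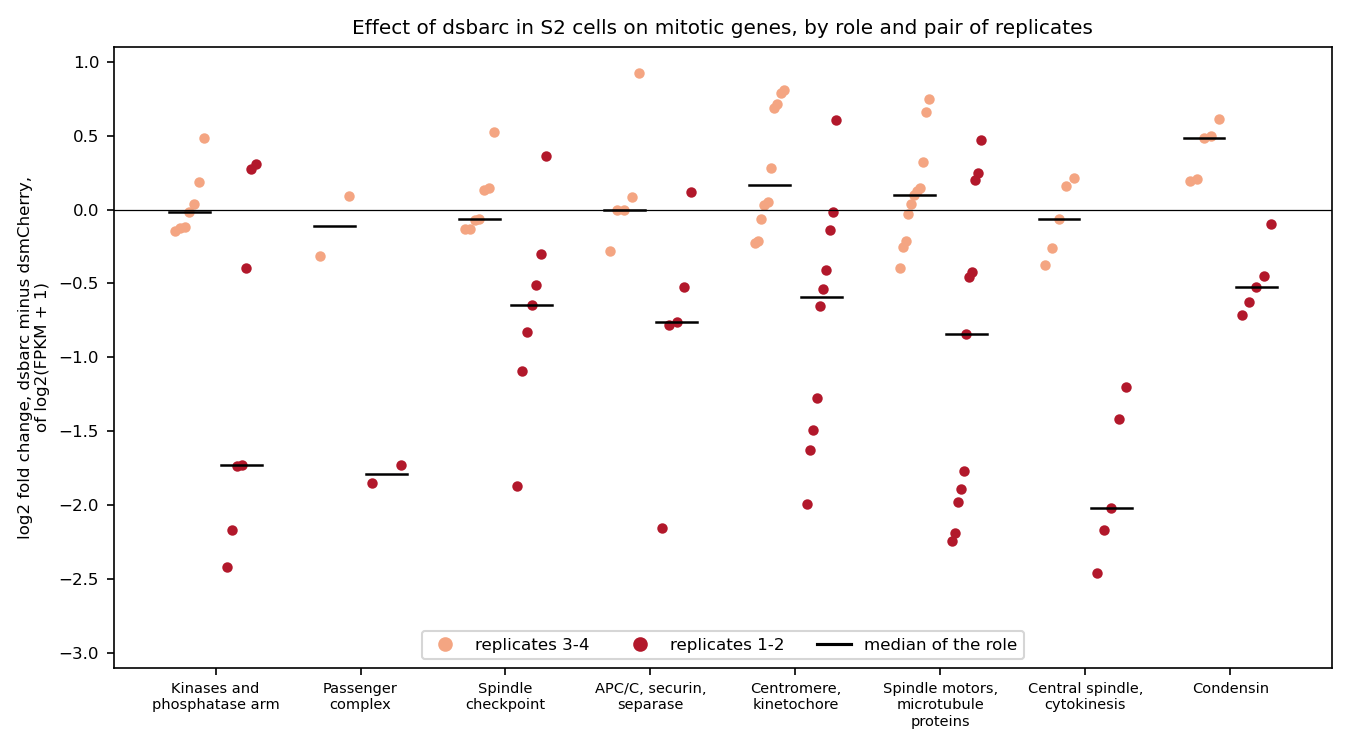
Each point is 1 of the 52 genes, grouped by role; its height is the log2 fold change of dsbarc minus dsmCherry on the log2(FPKM + 1) scale, in S2 replicates 3 and 4 (pale) and replicates 1 and 2 (dark), and black lines are medians. The central spindle genes have the lowest median in replicates 1 and 2 (-2.02), and no gene was called in replicates 3 and 4.

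Transcript length, which played no part in choosing the genes, moved with several of these differences. It was taken from the canonical transcript of release 6 of the fly annotation, chosen after the values had been seen, and was found for 51 of 52 members (818 bases for *mad2* to 7551 bases for *msps*). Across these 51 genes, which share libraries, Spearman's rho between length and change was 0.49 in S2 replicates 3 and 4 and 0.42 in replicates 1 and 2. It was 0.32 in neuroblasts, and over all genes tested 0.23, 0.27 and 0.18 in the same order. Length also moved with differences between libraries of 1 group, in either direction. For dsmCherry 4 minus dsmCherry 3, with no *barc* dsRNA in either, rho was 0.69 for the members and 0.53 for all genes, but for dsmCherry 2 minus dsmCherry 1 it was -0.54 and -0.37. For dsbarc 4 minus dsbarc 3 it was 0.57 and 0.45, and for dsbarc 2 minus dsbarc 1 it was -0.10 and 0.05. The 25 shorter members (up to 3102 bases) had a median change of -0.07 in replicates 3 and 4 and -1.73 in replicates 1 and 2. For the 26 longer members (from 3207 bases) the medians were 0.21 and -0.48. The part of transcript length in the changes was not tested.

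**Figure D5:**
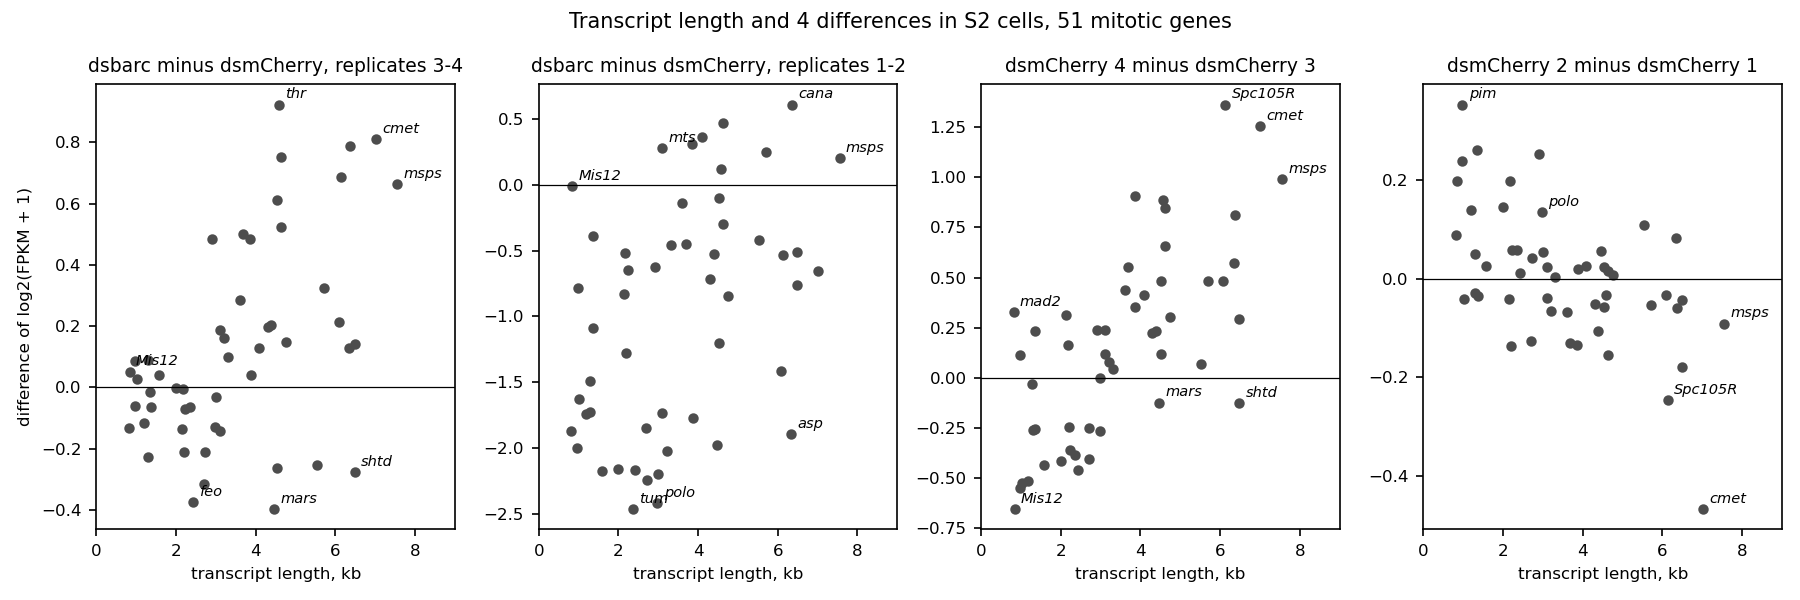
Each point is 1 of 51 genes; the horizontal axis is the length of its canonical transcript in kilobases and the vertical axis a difference of log2(FPKM + 1), from left to right dsbarc minus dsmCherry in S2 replicates 3 and 4, the same in replicates 1 and 2, dsmCherry 4 minus dsmCherry 3, and dsmCherry 2 minus dsmCherry 1. Longer transcripts tend to lie higher in the first 3 panels (rho 0.49, 0.42 and 0.69) and lower in the last (rho -0.54).

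In the controls, the mitotic genes stood higher in neuroblasts than in S2 cells. Control means ran from 6.07 to 411.9 FPKM (median 76.4) in neuroblasts and from 4.32 to 143.3 FPKM (median 23.8) in dsmCherry S2 cells. The ratio of neuroblast over S2 control means exceeded 1 in 50 of 52 members, with a median of 2.93, against 0.93 over all genes tested. It was highest for *sti* (8.73), *asp* (8.46), *thr* (7.72) and *borr* (7.40). The exceptions were *tacc* (0.663) and *Klp98A* (0.437). Since the system and the kit cannot be told apart, these ratios are given without a test.

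The authors' deposited table of neuroblasts listed 51 of the members and called 15 lower and 5 higher, beside 13.5% and 14.6% of its 11035 genes. Of these, 15 were also called by limma, all with the same sign. The authors' deposited table of S2 cells called 15 lower and 1 higher, beside 5.5% and 11.2% of its 12275 genes, and 3 of those were also called by limma (*Incenp*, *Klp3A* and *feo*). The 13 called in the authors' deposited table alone include *polo*, *aur*, *ial*, *fzy*, *tum*, *pav* and *ncd*, all of which fell in replicates 1 and 2 and were uncalled in replicates 3 and 4. The single gene called higher in the authors' deposited table was *thr*.

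Other mitosis genes, from 6 lists with 70 of 71 names found, gave 19 called lower and 8 higher of 65 tested in neuroblasts, beside 23.8% and 19.1% of all genes. In S2 replicates 3 and 4, 2 of 67 rose (*CLIP-190* and *gammaTub37C*) and 2 fell (*Spindly* and *dgt3*), named here after their values were seen, beside 6.08% and 6.21% of all genes. Of the same 67, 12 rose and 31 fell in replicates 1 and 2, beside 27.4% and 44.6% of all genes. For the difference between pairs 20 were called higher and 1 lower, beside 15.9% and 6.47% of all genes. *Spindly* and *dgt3* were called lower in neuroblasts, over all S2 libraries and in each S2 pair. *Spindly* (FBgn0031549), which recruits dynein to kinetochores through the Rod and Zwilch corona, had 14.9 and 16.2 FPKM with *barc* RNAi in neuroblasts, against 30.2 and 32.4 FPKM in controls (-0.97, SE 0.07, limma adjusted p = 2.3e-05). In S2 cells it had 4.73, 5.03, 7.91 and 7.76 FPKM in dsbarc 1 to 4, against 17.9, 18.04, 13.0 and 18.6 FPKM in dsmCherry 1 to 4. No dsbarc value reached a control value, and the fall was called in replicates 3 and 4 (-0.91, SE 0.20, limma adjusted p = 0.040) and in replicates 1 and 2 (-1.69, SE 0.08, limma adjusted p = 1.4e-05). Its neuroblast change was larger than that of any of the 52 members.

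Of the other kinetochore and checkpoint list, 4 of 6 fell in neuroblasts and 5 of 6 in S2 replicates 1 and 2, beside 23.8% and 44.6% of all genes. Among them was *Nnf1a* of the Mis12 complex (-0.34 in neuroblasts and -1.77 in that pair). Of 13 augmin and γ-tubulin genes, 9 fell in replicates 1 and 2, beside 44.6% of all genes, led by the augmin subunit *msd1* (-2.04). The augmin subunit *dgt3* had 6.05, 6.53, 13.8 and 12.7 FPKM in dsbarc 1 to 4, against 21.7, 22.3, 22.2 and 20.2 FPKM in dsmCherry 1 to 4. All its dsbarc values were below all controls, and it fell in replicates 3 and 4 (-0.64, limma adjusted p = 0.042), in replicates 1 and 2 (-1.66, limma adjusted p = 1.4e-05) and in neuroblasts (-0.21, limma adjusted p = 0.026). The γ-tubulin gene *gammaTub23C* fell in neuroblasts, with 104 and 107 FPKM with *barc* RNAi, against 151 and 146 FPKM in controls (-0.50). Of the 12 other spindle microtubule genes tested in S2 cells, 3 rose over all libraries, *CLIP-190*, *nudE* (0.96) and *Eb1* (0.56), and *mei-38* fell (-1.12). Of all genes, 11.5% rose and 15.2% fell there. In replicates 1 and 2 alone 5 of the 12 rose and 4 fell, beside 27.4% and 44.6% of all genes. In neuroblasts *mei-38* also fell (-0.53). The plus-end protein gene *CLIP-190* had 47.2, 45.7, 23.5 and 25.9 FPKM in dsbarc, against 8.45, 6.85, 8.02 and 13.3 FPKM in dsmCherry (1.82 over all S2 libraries, limma adjusted p = 0.0031). It was at 0.00 in neuroblasts, and the difference between systems was called (-1.82, SE 0.43, limma adjusted p = 0.036). The anaphase promoting complex, at 3 lower and 1 higher of 11 in replicates 1 and 2, and cohesin, at 4 lower and 4 higher of 11, had medians of -0.10 and 0.04 there. In cohesin *dmt* rose in neuroblasts (0.52) and *Nipped-B*, the cohesin loader, rose in replicates 1 and 2 (1.39). Of 14 other cytokinesis genes, 6 fell in replicates 1 and 2, among them the RhoGEF *pbl* (-1.16) and the anillin *scra* (-1.15), a share close to the 44.6% of all genes. The other 2 called there rose, the myosin heavy chain gene *zip* (0.88) and *fwd* (0.40).

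Fragments of a gene that overlaps another can be shared between them, and the strand setting of the counting is not given in the sources used here. This touches 20 members: borr, fzy, Bub3, mad2, rod, Klp61F, Klp67A, ncd, cal1, Nuf2, Spc25, thr, Sse, glu, CAP-D2, mars, endos, shtd, cmet and cana. The other 32, *polo*, *aur*, *tum*, *pav*, *feo*, *asp* and *Incenp* among them, overlap no other gene in the tables' coordinates.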

How the data were processed

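RNA-seq values of 4 neuroblast and 8 S2 libraries were used, all of them poly(A)-selected and strand-specific by dUTP, per the labels' protocols. FPKM were made by the authors, per the file headers, 1 table per library. The deposited comparison tables hold base means, a signal of counts divided by size factors, their ratio (fold change), its log2 and p-values, which the authors made. Tools named in the submitters' processing notes are DESeq, HTSeq, Cufflinks 1.3.0, TopHat 1.4.1 and BWA 0.6.1. For the genome build, the annotation and the strand setting, the sources used here give nothing. Coordinates are those of the files. The neuroblast comparison table was turned to *barc* RNAi over control, its direction read from *barc*.

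Genes with status OK in each library and a mean of at least 1 FPKM over the libraries compared were tested as log2(FPKM + 1) with limma 3.58.1 (trend, R 4.3.3), within each system. Each pair of S2 replicates was also fitted alone (2 against 2), the difference between pairs over 8 S2 libraries and the difference between systems over all 12, and p-values were adjusted by Benjamini-Hochberg over all genes tested, with calls at 0.05. The code was tested on simulated data. Tables and figures used Python 3.11.15, pandas 2.3.3, numpy 2.4.6 and matplotlib 3.10.9. Fragments per library were implied from the deposited confidence intervals and are approximate, so no counting intervals are given. No column of another sample was present (0 unused).

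Members and lists were chosen with earlier results of these data known. Each member is named by its role. Full values go to called members with the largest change of each role, to the highest and lowest, and to those that differ between S2 pairs. Other lists name at most 2 called genes per comparison and direction beside those singled out. Same-numbered S2 libraries deviated together (r = 0.581, 0.588, 0.588 and 0.451 for replicates 1 to 4), though libraries of different number within a pair did so too (0.326 to 0.618), so the replicate block is given beside the S2 counts. Neuroblast numbers did not pair (r = 0.0673). Alternatives were a pseudocount of 0.1, no filter, TPM, quantile normalisation, blocks, a fit over 4 groups and leaving out each library.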

Additional observations from a re-analysis of the deposited data

Results flagged for a closer look

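In dsmCherry, 6 values stood far from the other 3 of their group in a test of 104 groups of 4 libraries, in which chance flags about 1 in 20 groups. There *polo* was high in replicate 2 (104 FPKM), *Klp61F* was low in replicate 3 (22.5 FPKM), *tum* was low in replicate 4 (36.6 FPKM) and *sti* was low in replicate 3 (15.01 FPKM). *thr* was high in dsmCherry replicate 4 (11.2 FPKM), as was *cana* (8.21 FPKM). The test can flag only a single value of a group. It could not flag dsbarc 1 and 2, which lay below the other 6 S2 libraries together in 34 members. The lack of flags in dsbarc therefore says nothing of its spread.

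For 32 members the effect of dsbarc differed between the 2 pairs of S2 replicates by limma's test of the difference. The log2 differences, replicates 3 and 4 minus replicates 1 and 2, follow by role. Among the kinases they were 2.29 for *polo*, 2.21 for *aur*, 1.62 for *ial* and 1.59 for *gwl*. In the passenger complex they were 1.82 for *borr* and 1.53 for *Incenp*. Among checkpoint genes they were 1.74 for *mad2*, 1.02 for *Bub3*, 0.69 for *ald* and 0.65 for *rod*. Of the anaphase genes, *fzy* had 2.15 and *pim* 0.87. At the kinetochore, *Spc25* had 1.93, *cid* 1.65, *Nuf2* 1.26 and *Ndc80* 1.06. Among motors and microtubule proteins, *Klp67A* had 2.16, *ncd* 2.03, *asp* 2.02, *Klp61F* 1.81, *mars* 1.58, *Klp10A* 0.99 and *Grip84* 0.56. In the central spindle, *tum* had 2.39, *pav* 2.18, *feo* 1.79, *sti* 1.63 and *Klp3A* 0.94. In condensin, *barr* had 1.11, *SMC2* 0.95, *CAP-D2* 0.91 and *Cap-G* 0.73. The first number of the sample descriptions separates the same pairs, and what else differed between them cannot be told apart.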

How the results depend on the processing

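Shares of all genes called are given in brackets. In neuroblasts the 17 members called lower (23.8%) became 9 with no filter (12.1%) and 7 after TPM (15.5%). They became 11 after quantile normalisation (21.3%) and 0 in the fit over 4 groups (1.42%). The 3 called higher (19.1%) became 9 after TPM (30.7%), 6 after quantile normalisation (19.9%) and 0 in the fit over 4 groups (1.29%). With the replicate number as a block there were 3 higher (20.8%) and 21 lower (26.1%), although these numbers did not pair the libraries. In S2 cells the 5 called lower (15.2%) became 2 with no filter (8.33%), 3 after TPM (10.7%) and 8 with a replicate block (19.4%). They became 13 in the fit over 4 groups (21.9%) and 18 with the first number as a block (25.5%). Replicates 3 and 4 alone gave 0 lower (6.21%) and replicates 1 and 2 alone 41 (44.6%). When 1 S2 library was left out, 0 to 19 were lower (8.25% to 19.0%). The 2 called higher (11.5%) became 0 with no filter (8.92%) and 4 after quantile normalisation (12.8%). Replicates 3 and 4 alone gave 0 higher (6.08%) and replicates 1 and 2 alone 7 (27.4%). When 1 S2 library was left out, 0 to 4 were higher (5.96% to 13.8%). In replicates 1 and 2 alone, 5 members turned to a called fall: *BubR1* (-0.30), *Cenp-C* (-0.41), *Spc105R* (-0.54), *SMC2* (-0.45) and *cmet* (-0.65). The difference between systems, 0 called (5.76%), reached 0 to 2 when 1 S2 library was left out (3.6% to 12.9%). The 32 members called for the difference between S2 pairs ran from 26 to 47 over the alternatives, with 38 under a replicate block, while the share of all genes called ran from 8.76% without dsbarc 1 to 53.9% without dsmCherry 3, where 40 members were called (41.6% and 47 without dsmCherry 4). The causes were not tested. Where a neuroblast group was left with 1 library, that library was assumed to vary like the other group. With 2 libraries per group and pair, small changes are limited by the spread between libraries.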
